A study of Homo sapiens with 10 samples.

Results

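The TNF receptor superfamily was examined through 10 receptor genes given by name, TNFRSF12A, TNFRSF10A, TNFRSF10B, TNFRSF10D, TNFRSF1A, TNFRSF1B, TNFRSF11B, TNFRSF21, TNFRSF14 and FAS, out of 16372 genes with a symbol on the arrays. Every probe annotated to these genes was used, which gave 11 of 24105 probes, with 2 for TNFRSF10B and 1 for each other gene. The genes had been chosen by name with earlier results of the same arrays known, in which TNFRSF12A was already seen to be higher after 6 h of hepatocyte growth factor (HGF), and the 6 h log2 difference is taken as the value that they were chosen by. The comparisons that rest on the 6 h arrays are therefore given as descriptions, with no p-value.

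The cells were of the human melanoma line MDA-MB-435, and their RNA was read on Illumina Human-8 V1 bead arrays, 2 to a group. In 3 of the 5 groups HGF, the ligand of the MET receptor, had been given for 1 h, 6 h and 24 h. The fourth had been transduced with the integrin chain ITGB4, and the fifth was left untreated. All groups shared the line and standard growth conditions. No HGF dose and no empty-vector control is given in the sources used here, and whether the ITGB4 cells were a pool or a clone is not stated. The comparisons ask which receptor transcripts differed from the common untreated reference and between the times of HGF. The same untreated group served every time, with no untreated cells matched to each. Effects of HGF and of time in culture were therefore not separated.

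Receptors of this superfamily bind trimeric ligands of the TNF family at the cell surface. Some carry a death domain inside the cell and can recruit caspases, others recruit TRAF adaptor proteins that lead to NF-kB and stress kinases, and decoys lack a working tail and compete for ligand. Melanoma cells are known to vary in the death receptors and decoys that they carry.

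Between 42.4% and 49.4% of probes were detected per array, where detection means a score of 0.99 or more against the negative control beads. ITGB4 had a normalised signal of 6788.1 and 5022.9 on the arrays of ITGB4 cells and 59.6 to 63.8 on the other 8, as its label says. Of 11 melanocyte markers on the array 10 were detected on all arrays and 0 on none, with a summed signal from 21394 at 6 h of HGF to 30230 in untreated cells. Among the markers of other cell types, 2 of 8 epithelial, 2 of 7 fibroblast, 2 of 7 immune and 1 of 5 endothelial genes were detected on all arrays, and their summed signals ranged from 962 to 1132, 898 to 1169, 661 to 789 and 438 to 478 over the groups. Replicate 1 of untreated cells and of each HGF time differed from the other 6 arrays in having lower detection scores among dim probes. Values within each kind of array are given below for some comparisons of TNFRSF12A, TNFRSF1A, TNFRSF21 and TNFRSF14. Outside the ITGB4 cells the split equals the replicate number, so array background and replicate cannot be told apart in it. Both ITGB4 arrays were of the kind with higher scores. The 1 untreated array of that kind was replicate 2. Against it the ITGB4 log2 differences were 0.16 for TNFRSF12A, 0.10 for probe GI_22547118-A of TNFRSF10B and -0.02 for TNFRSF1A. They were -0.10 for TNFRSF11B, 0.255 for TNFRSF21, -0.01 for TNFRSF14 and 0.02 for FAS. The part of this split and of the marker levels in the differences between groups was not tested, beyond the values within each kind of array given below.

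By detection the genes fell into 3 kinds. TNFRSF12A, TNFRSF1A, TNFRSF21, TNFRSF14 and 1 TNFRSF10B probe were detected on 10 of 10 arrays with a score of 1. FAS was detected on 7 arrays, TNFRSF11B on 5 and the second TNFRSF10B probe on 1. TNFRSF10A, TNFRSF10D and TNFRSF1B were detected on 0 arrays. The tests took probes detected on at least 1 array, so that 8 of the 11 probes, standing for 7 of the 10 genes, were among the 14018 probes tested.

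**Figure D1:**
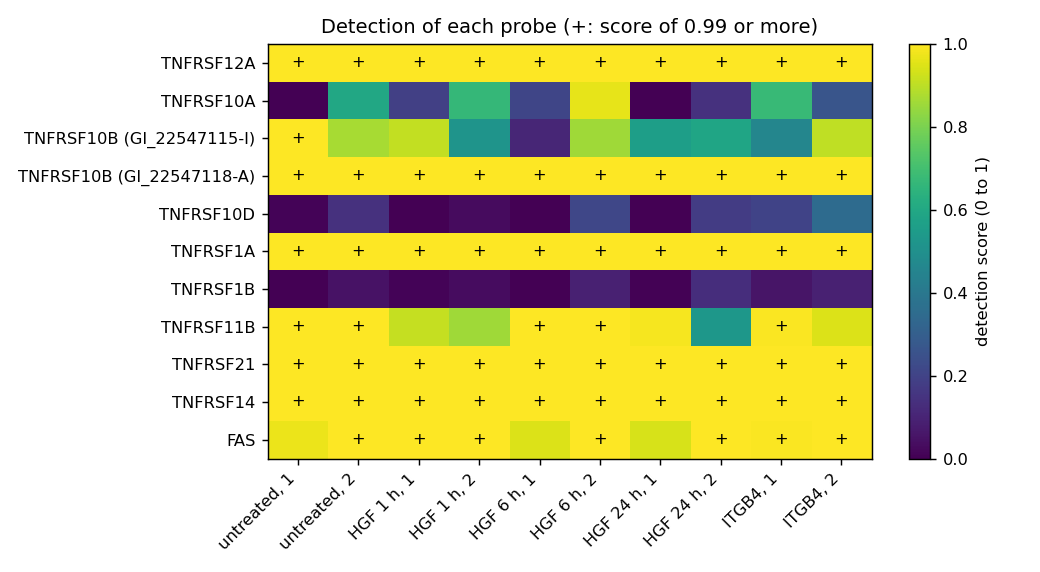
Detection score of each of the 11 probes (rows) on each of the 10 arrays (columns, by group and replicate), as a colour from 0 to 1, with a plus sign where the score was 0.99 or more. The rows of TNFRSF10A, TNFRSF10D and TNFRSF1B hold no plus sign, TNFRSF11B has 5 and FAS has 7.

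TNFRSF12A (probe GI_7706185-S), the receptor for TWEAK, a ligand that acts on cell migration and tissue repair, was the member with the widest range. Its normalised signal was 504.6 and 457.1 in untreated cells, 648.8 and 604.3 after 1 h of HGF, 1307.6 and 1353.3 after 6 h, 316.1 and 395.5 after 24 h, and 616.9 and 424.0 in ITGB4 cells. Both 6 h arrays lay above all other arrays, and both 24 h arrays lay below all other arrays. By group mean the order was 6 h (1330.5 ± 32.3, SD, n = 2), 1 h (626.6 ± 31.5), ITGB4 (520.4 ± 136.4), untreated (480.9 ± 33.6) and 24 h (355.8 ± 56.2). In this order the arrays of 1 h and ITGB4 overlapped, as did those of ITGB4 and untreated cells, whereas those of 6 h and 1 h did not, nor did those of untreated cells and 24 h. Each value rested on 18 to 36 beads. In RNA of whole cultures a change in the share of cells that carry a transcript and a change in its amount per cell cannot be told apart.

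**Figure D2:**
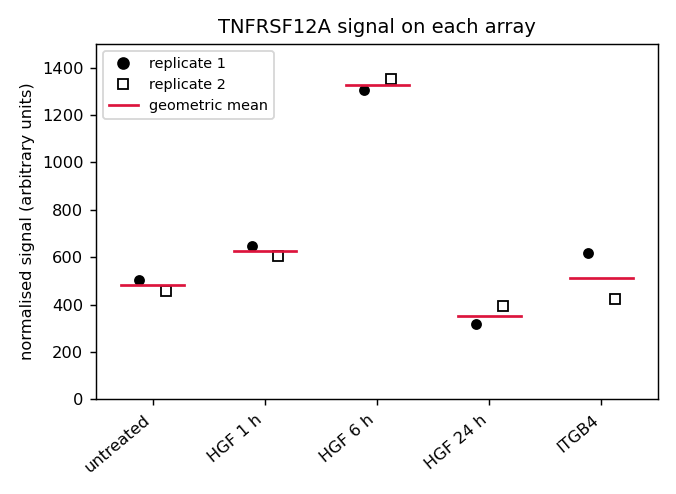
Normalised signal of TNFRSF12A (vertical axis, linear, arbitrary units) on each array by group, with filled circles for replicate 1, open squares for replicate 2 and a line at the geometric mean. The 6 h arrays sit at 1307.6 and 1353.3 and the 24 h arrays at 316.1 and 395.5, above and below all other arrays.

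At 6 h the TNFRSF12A signal was 2.77-fold that of untreated cells, a log2 difference of 1.47 ± 0.19 (standard error of the fit). It was the only one of the 8 tested probes called there, against 1.9% of all probes tested (267 of 14018). From this share nothing is read, since the gene was chosen with this difference known. The log2 difference was 1.37 between the arrays of low dim-probe scores and 1.57 between the others. Leaving out untreated replicate 2 gave 1.4, and leaving out replicate 1 or replicate 2 of the 6 h group gave 1.49 and 1.44. In these 3 fits, where the remaining array of its group is assumed to vary like the others, the gene was no longer called, and neither were most probes, since they called 1, 5 and 0 of all probes against 267.

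After 1 h of HGF the TNFRSF12A signal was 1.3-fold that of untreated cells, with a log2 difference of 0.38 ± 0.19 that did not pass the test (limma, Benjamini-Hochberg adjusted p = 0.41). The 95% interval of the difference ran from -0.03 to 0.80. Both 1 h arrays were above both untreated arrays. The difference was 0.36 and 0.40 within the arrays of low and of high dim-probe scores.

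At 24 h the gene lay on the other side of the untreated level, by a log2 difference of -0.44 ± 0.19 (interval -0.86 to -0.03), which did not pass the test either (limma adjusted p = 0.86). Within the low and the high kind of array it was -0.68 and -0.21. Against 1 h the 24 h level was lower by -0.82 ± 0.19, with no overlap between the arrays, an unadjusted p of 8.9e-04 and a limma adjusted p of 0.61.

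Against 6 h, the 24 h level of TNFRSF12A was 3.76-fold lower (log2 difference -1.91 ± 0.19), and the 6 h level was 2.12-fold that at 1 h (1.09 ± 0.19). The same 6 h arrays enter both of these and the comparison with untreated cells. TNFRSF12A was the only tested member called in each, where 8.31% (24 h minus 6 h) and 4.67% (6 h minus 1 h) of all probes were called, and here too nothing is read from the calls, since the 6 h value chose the gene. Leaving out replicate 1 of the 1 h group gave 1.13 between 6 h and 1 h, leaving out replicate 1 or replicate 2 of the 6 h group gave 1.11 and 1.06. The gene was then no longer called, in fits that called 0, 47 and 75 of all probes against 654. Between 24 h and 6 h the gene was called in each fit that left out an array, and these called 308 to 1065 of all probes against 1165.

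In ITGB4 cells the TNFRSF12A arrays lay on either side of the untreated ones, with a log2 difference of 0.09 ± 0.19 and an interval from -0.33 to 0.51 (limma adjusted p = 1). It was 0.36 without ITGB4 replicate 2 and -0.18 without ITGB4 replicate 1, so that its sign turned on which array was kept.

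In the other 4 comparisons the count of called members was at the share over all probes and says nothing particular of the members. Of the 8 tested probes 0 were called at 1 h, at 24 h, in ITGB4 cells and between 24 h and 1 h, where 0% (1 h), 0% (24 h), 0.00713% (ITGB4, 1 probe) and 0% (24 h minus 1 h) of all 14018 probes were called by limma. At an unadjusted p under 0.05 the counts were 1, 3, 0 and 1 of the 8, beside 1897, 800, 117 and 888 of all probes. With the ordinary pooled variance in place of limma's, 0 of the 8 were called in these 4 comparisons as well.

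**Figure D3:**
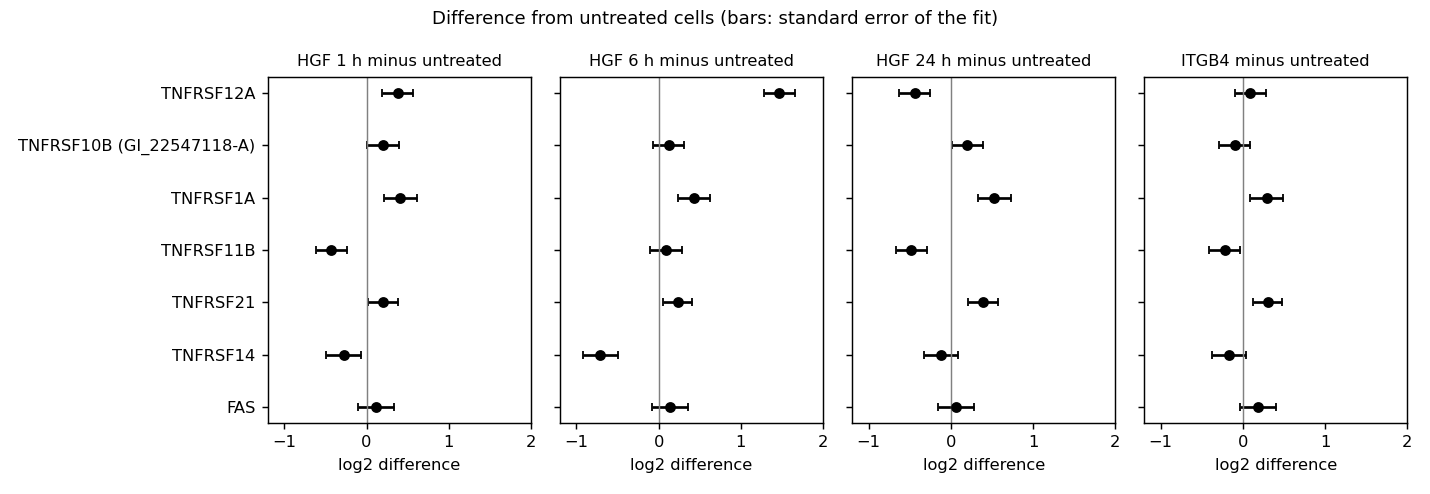
Log2 difference from untreated cells (horizontal axis) of 7 tested probes in 4 panels, HGF 1 h, 6 h and 24 h and ITGB4, with the standard error of the fit as bars. The I probe of TNFRSF10B, detected on 1 array, is left out. TNFRSF12A at 6 h stands at 1.47 and TNFRSF14 at -0.71, and the other points lie between -0.48 and 0.53.

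The receptors for TRAIL come next in the family. TNFRSF10A and TNFRSF10B (DR4 and DR5) carry death domains, and TNFRSF10D (DcR2) is a decoy with a cut-short tail. TNFRSF10B was measured by 2 probes, whose suffixes in Illumina's naming mark a probe for all transcript variants (A) and a probe for a particular variant (I). The A probe (GI_22547118-A) had signals of 1512.0 and 1140.9 in untreated cells, 1650.9 and 1384.9 at 1 h, 1480.4 and 1383.1 at 6 h, 1688.4 and 1344.2 at 24 h, and 1290.9 and 1165.3 in ITGB4 cells. The groups overlapped in every comparison with untreated cells.

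Its log2 differences from untreated cells were 0.20 ± 0.19 at 1 h (limma adjusted p = 0.70), 0.20 ± 0.19 at 24 h (0.94) and -0.10 ± 0.19 in ITGB4 cells (1), with intervals that together spanned -0.50 to 0.61. The value at 6 h was 0.12. The I probe (GI_22547115-I) was detected on untreated replicate 1 alone, at 94.1, and lay between 67.7 and 79.2 except for 81.5 on HGF 1 h replicate 1. No fold is given for it, since its levels in all other groups were not above background.

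TNFRSF10A (GI_21361085-S) had signals of 51.3 to 83.6 and its highest score was 0.964, on HGF 6 h replicate 2. TNFRSF10D (GI_22547107-S) had signals of 42.8 to 60.9 and a highest score of 0.348. The limit of detection on an array ran from 86.6 to 96.5, so both genes gave only an upper bound. Among the TRAIL receptors, therefore, the arrays measured a level for TNFRSF10B on all arrays and for the other decoy TNFRSF10C, which was no member, at 96.3 to 166.7. The ligand TRAIL itself (TNFSF10) was detected on 0 of 10 arrays.

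FAS (GI_23510430-A), the death-domain receptor for FAS ligand, was close to the detection limit. Its signals were 87.2 and 108.8 in untreated cells, 101.4 and 108.7 at 1 h, 90.7 and 127.2 at 6 h, 83.6 and 123.2 at 24 h, and 105.5 and 116.1 in ITGB4 cells. The 3 arrays on which it was not detected were replicate 1 of untreated cells, 6 h and 24 h, all of the kind with low dim-probe scores, and within each of the groups replicate 2 was the higher. The log2 differences were 0.11 ± 0.22 at 1 h, 0.06 ± 0.22 at 24 h and 0.18 ± 0.22 in ITGB4 cells (limma adjusted p = 0.90, 0.99 and 1), and the groups overlapped in each.

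TNFRSF21 (DR6, GI_23238206-S), another receptor with a death domain, was detected throughout. Signals were 342.5 and 365.3 in untreated cells, 388.5 and 425.2 at 1 h, 439.4 and 393.4 at 6 h, 505.6 and 422.8 at 24 h, and 514.5 and 369.2 in ITGB4 cells. All 8 other arrays lay above both untreated arrays, by at most 0.39 ± 0.18 in log2 group mean, at 24 h (interval -0.01 to 0.79, limma adjusted p = 0.86). At 1 h the difference was 0.20 ± 0.18 (adjusted p = 0.70) and in ITGB4 cells 0.30 ± 0.18 (1), so none passed the test. Within the low and the high kind of array the 24 h difference was 0.56 and 0.21. Over the alternatives the ITGB4 difference ranged from 0.06 to 0.63.

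Of the receptors for TNF itself, TNFRSF1A (GI_23312372-S), the death-domain receptor found on most cells, was detected on all arrays, and TNFRSF1B (GI_23312365-S), the receptor of mainly immune and endothelial cells, on none. TNFRSF1B had signals of 49.1 to 61.5 with scores of at most 0.132. TNFRSF1A had 789.5 and 1207.8 in untreated cells, 1358.6 and 1246.8 at 1 h, 1233.7 and 1404.9 at 6 h, 1278.0 and 1566.0 at 24 h, and 1134.9 and 1250.3 in ITGB4 cells. All 6 HGF arrays lay above both untreated arrays, of which replicate 1 was the lowest of all 10.

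The log2 differences of TNFRSF1A were 0.41 ± 0.20 at 1 h (limma adjusted p = 0.40), 0.43 at 6 h, 0.53 ± 0.20 at 24 h (0.86) and 0.29 ± 0.20 in ITGB4 cells (1). Their size turned on untreated replicate 1. Without it they were 0.11, 0.13, 0.23 and -0.02, and without untreated replicate 2 they were 0.72, 0.74, 0.84 and 0.60. Within the arrays of high dim-probe scores the difference at 1 h was 0.05, and within those of low scores, which hold untreated replicate 1, it was 0.78.

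TNFRSF14 (HVEM, GI_23200040-S), which binds LIGHT and the inhibitory receptor BTLA and signals through TRAF proteins, lay below its untreated level at 6 h, where TNFRSF12A lay above. Its signals were 3415.8 and 2732.8 in untreated cells, 2631.1 and 2409.5 at 1 h, 1977.7 and 1758.0 at 6 h, 3518.7 and 2246.6 at 24 h, and 2916.1 and 2517.4 in ITGB4 cells. Both 6 h arrays were below all 8 others. The 24 h arrays were far apart, with replicate 1 the highest of all 10 arrays and replicate 2 the lowest outside 6 h.

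The 6 h difference of TNFRSF14 was -0.71 ± 0.21, a signal 1.64-fold lower, and was not called. It was -0.79 and -0.64 within the low and high kinds of array, and the gene was called with that split as a block or without either 24 h array, in fits that left the value at -0.71. That block called 1066 of all probes at 6 h against 267 in the main fit, and 2163 between 24 h and 6 h against 1165. Against 1 h the 6 h level of TNFRSF14 differed by -0.43 ± 0.21. The 24 h level differed from that at 6 h by 0.59 ± 0.21, and was not called. It was 0.91 and called without HGF 24 h replicate 2, 0.27 and not called without HGF 24 h replicate 1, and called at 0.59 with the dim-probe split as a block. The tests away from 6 h gave -0.28 ± 0.21 at 1 h (limma adjusted p = 0.61), -0.12 ± 0.21 at 24 h (0.98), -0.17 ± 0.21 in ITGB4 cells (1) and 0.16 ± 0.21 between 24 h and 1 h (1).

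TNFRSF11B (osteoprotegerin, GI_22547122-S), a secreted decoy for RANK ligand that can also bind TRAIL, was near the limit of detection. Signals were 115.9 and 98.9 in untreated cells, 81.6 and 77.1 at 1 h, 124.5 and 103.9 at 6 h, 88.4 and 66.8 at 24 h, and 105.2 and 80.9 in ITGB4 cells. It was detected on both arrays of untreated cells and of 6 h, on 1 of the ITGB4 arrays, and on neither array of 1 h or 24 h.

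For the groups in which it was not well above background only a bound can be given, the dim arrays being set at the lowest detected signal of each array where that is higher than their own. By group mean, TNFRSF11B in untreated cells was at least 1.22-fold the 1 h level and at least 1.16-fold the 24 h level. These bounds, and those below for 6 h, leave out the spread between arrays. As measured, the log2 differences were -0.43 ± 0.19 (limma adjusted p = 0.36) and -0.48 ± 0.19 (0.86), and neither passed the test. At 6 h it was at least 1.29-fold the 1 h and at least 1.24-fold the 24 h level, with measured differences of 0.52 ± 0.19 (6 h minus 1 h) and -0.56 ± 0.19 (24 h minus 6 h), neither of them called. Both were called with the dim-probe split as a block, at the same values. That block called 1690 (6 h minus 1 h) and 2163 (24 h minus 6 h) of all probes, against 654 and 1165 in the main fit. With the authors' background-subtracted value table the TNFRSF11B differences were 1.36 and -1.36 and called. With signals raised to the limit of detection they were 0.34 and -0.34 and not called. In ITGB4 cells the difference was -0.22 ± 0.19 (adjusted p = 1).

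**Figure D4:**
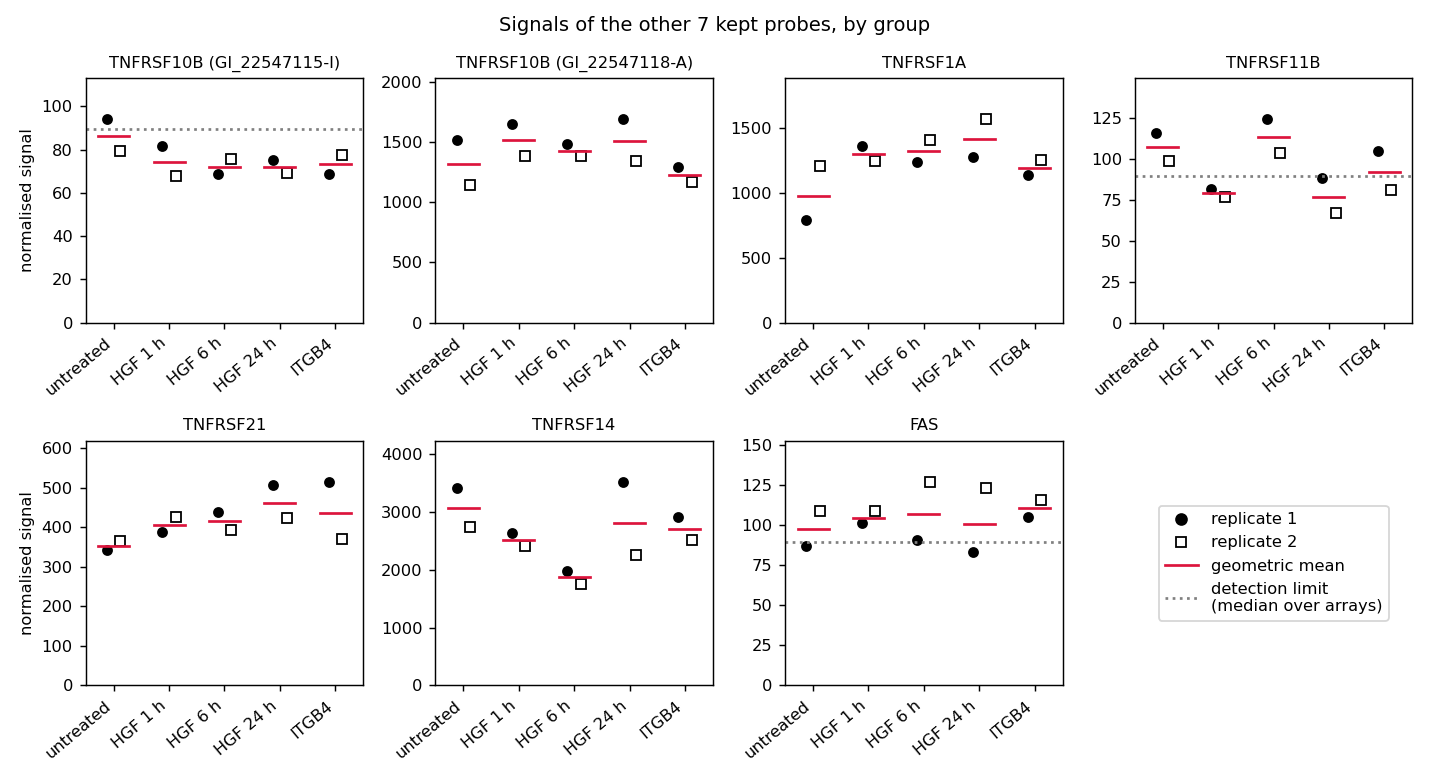
Normalised signal (vertical axes, linear from 0, each panel on its own scale) of the 7 tested probes other than that of TNFRSF12A, by group, with filled circles for replicate 1, open squares for replicate 2, a line at the geometric mean and, for dim probes, a dotted line at 89.6, the median over the arrays of the limit of detection. The TNFRSF14 points are lowest at 6 h (1977.7 and 1758.0), and TNFRSF11B is below the dotted line on both 1 h and both 24 h arrays.

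The ligands of the members were not measured above background in these cells. TNFSF12 (TWEAK, the ligand of TNFRSF12A) had signals of 43.0 to 64.6, TNF 45.2 to 61.4, TNFSF10 45.4 to 65.9 and FASLG 48.6 to 60.2, each detected on 0 of 10 arrays. The 3 probes of TNFSF11 (RANK ligand) and the 2 of TNFSF14 (LIGHT) were also detected on 0 arrays. Of the 16 TNF ligands on the array 4 were tested, TNFSF9, TNFSF13B and TNFSF15 with detection on 10 arrays and EDA on 6. In the 7 comparisons 0 of the 4 were called, where at most 8.31% of all probes were called.

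Among 19 other receptors of the superfamily 9 were tested. LTBR, the lymphotoxin beta receptor, was the only one called, at 6 h against untreated cells (0.85 ± 0.18) and between 24 h and 6 h (-0.68 ± 0.18). In the first comparison 1.9% of all probes were called and in the second 8.31%, and nothing is read from 1 call among 9. Its signals were 341.0 and 415.4 in untreated cells, 553.7 and 456.7 at 1 h, 684.8 and 675.7 at 6 h, 376.5 and 476.4 at 24 h, and 468.5 and 434.9 in ITGB4 cells. As with TNFRSF12A both 6 h arrays were above all others. At 1 h the difference was 0.42 ± 0.18 (limma adjusted p = 0.33). The median over the 9 receptors was 0.08 at 6 h, beside 0.01 over all probes.

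Inside the cell, the TRAF proteins and other parts of the receptor complexes (20 tested of 26 listed) had a median log2 difference of 0 at 6 h. There 10 genes lay above 0 and 10 below. Of these genes 0 were called in any comparison with untreated cells, where at most 1.9% of all probes were called. TNFAIP3 (A20), a deubiquitinase that dampens NF-kB, was called lower at 24 h than at 6 h (-1.06 ± 0.19), with 388.7 and 334.4 at 6 h and 185.8 and 162.0 at 24 h. Between these times 8.31% of all probes were called.

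Of the death signalling genes 16 of 19 were tested, with medians of 0.14 at 1 h, 0.06 at 6 h, -0.04 at 24 h and 0.01 in ITGB4 cells. FAIM, an inhibitor of FAS-induced death, was called higher at 6 h (0.90 ± 0.19), at signals of 246.3 and 236.0 against 126.5 and 132.4 in untreated cells. It was also called at 6 h against 1 h (0.97) and at 24 h against 6 h (-1.23), with 24 h signals of 115.5 and 91.2, the latter near the limit of detection. CASP9, the initiator caspase of the mitochondrial route, was called lower at 6 h than at 1 h (-0.79) and higher at 24 h than at 6 h (0.61). BID, which links death receptors to mitochondria, and CYCS, the cytochrome c gene, were called lower at 24 h than at 6 h (-0.66 and -0.87). The shares of all probes called were 1.9% at 6 h, 4.67% between 6 h and 1 h and 8.31% between 24 h and 6 h.

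Of 19 NF-kB subunits and targets 14 were tested. At 6 h CXCL8, a chemokine, and NFKBIA, the inhibitor that NF-kB itself induces, were called higher, by 1.61 ± 0.26 and 0.83 ± 0.17. Between 6 h and 1 h CXCL8 was called higher (1.96) and the subunits NFKB2 and RELB lower (-1.23 and -0.66). Between 24 h and 6 h CXCL8 (-2.22) and TNFAIP3 were called lower and NFKB2 higher (0.97). The CXCL8 signals at 24 h, 102.8 and 90.1, were near the limit of detection. Of all probes 1.9% were called at 6 h, 4.67% between 6 h and 1 h and 8.31% between 24 h and 6 h. The median of the list was 0.25 at 1 h, 0.09 at 6 h and 0.11 at 24 h. Over all probes it was 0.04, 0.01 and 0.01. At 1 h 11 of the 14 genes lay above 0 and 3 below. NFKBIA differed there by 0.73 ± 0.17 (limma adjusted p = 0.19), and by 0.1 ± 0.17 between 6 h and 1 h. RELB and NFKB2 differed from untreated cells at 1 h by 0.71 ± 0.17 and 0.70 ± 0.19 (limma adjusted p = 0.19 and 0.2). At 6 h they differed from untreated cells by 0.05 ± 0.17 and -0.54 ± 0.19, and neither was called. Of the list 0 genes were called at 1 h, at 24 h or in ITGB4 cells, where 0, 0 and 1 of all 14018 probes were called. These lists had been chosen with earlier results of the same arrays known, and their calls at 6 h are descriptions as well.

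The genes whose log2 pattern over the 10 arrays was most like that of TNFRSF12A were NOP56 (Pearson r = 0.995), CSTF2 (0.994), RBM14 (0.992), NOP16 (0.991) and POLR1G (0.989). NOP56 and NOP16 are nucleolar proteins of ribosome assembly, POLR1G is a subunit of RNA polymerase I, CSTF2 is a cleavage and polyadenylation factor and RBM14 is an RNA-binding coactivator. NOP56 had signals of 370.9 and 343.3 in untreated cells, 453.3 and 422.5 at 1 h, 852.2 and 853.7 at 6 h, 264.6 and 317.1 at 24 h, and 406.0 and 342.5 in ITGB4 cells, so that its 6 h arrays were highest and its 24 h arrays lowest, as for TNFRSF12A. These correlations are descriptions over arrays that share groups, normalisation and array effects. Among the members, the correlation with TNFRSF12A was -0.749 for TNFRSF14, 0.555 for TNFRSF11B, which was detected on 5 of the arrays, and between -0.042 and 0.171 for TNFRSF1A, TNFRSF21, FAS and the A probe of TNFRSF10B.

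**Figure D5:**
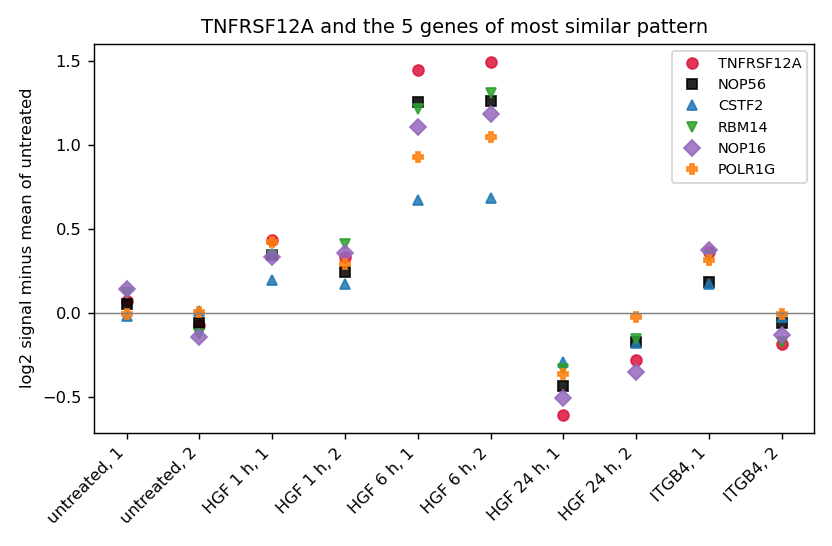
Log2 signal minus the mean of the untreated arrays (vertical axis) on each of the 10 arrays, for TNFRSF12A and the 5 genes of highest Pearson correlation with it. All 6 genes are highest on the 6 h arrays, and the correlations range from 0.989 to 0.995.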

How the data were processed

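The authors deposited 1 scanner table per array, written by BeadStudio 1.5.1.3 per the submitters' processing notes. The deposited intensity is the mean brightness of a probe's beads, neither background subtracted nor normalised between arrays. The deposited detection score is a fraction from 0 to 1 against negative controls. The deposited bead number is a count of another kind and entered no test. A value table that the authors background subtracted and rank-invariant normalised served as an alternative; its ITGB4 replicate 2 column was no straight line of that scanner table (largest residual 7751.29, Spearman 0.968), and the other 9 columns were, within 0.11. The file headers name no genome build.

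Of 24136 probes, 22 controls and 9 with missing values were left out. Intensities were quantile normalised and brought to log2, with no floor. Probes with a detection score of 0.99 or more on at least 1 array were kept (14018, 58.2%). GEO's platform annotation gave 1 symbol for 18758 probes and none for 5347. Groups and replicate numbers came from the labels, and the design text calls samples of a group biological duplicates; nothing further says whether they came from separate cultures, so p-values measure the spread between these samples. Array number limits precision, with 5 residual and 8.16 prior degrees of freedom; an exact permutation of 2 against 2 arrays cannot go below p = 0.333.

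Group means over all 10 arrays were fitted with limma 3.58.1 in R 4.3.3, with 7 contrasts. A probe was called at a two-sided moderated p, Benjamini-Hochberg adjusted over kept probes, under 0.05. The procedure was tested on simulated data. Their noise was independent between arrays, so effects shared by arrays, such as replicate or background, were not covered. A list gene was represented by its kept probe of highest mean. Named were all members, their ligands, up to 3 called genes each way per list and comparison, and the 5 genes most correlated with TNFRSF12A. ITGB4 was named as the check of its label, and TNFRSF10C and the 4 tested ligands after their values were seen. Members, lists and the split of arrays by dim-probe scores (25th percentile of the score under 0.1) were chosen with earlier results of these data known. Sequences were not used here. Alternatives were median scaling, normexp with an offset of 50, the value table, a floor, 2 other detection filters, ordinary variance, 2 blocks and leaving out each array.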

Additional observations from a re-analysis of the deposited data

Results flagged for a closer look

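The TNFRSF12A level stood apart by the time of HGF. The difference from untreated cells was larger at 6 h than at 1 h by 1.09 on the log2 scale, and between 24 h and 6 h it differed by -1.91. Both are descriptions and no test is drawn from them, since they share the 6 h arrays on which the gene was already known to be higher.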

How the results depend on the processing

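Of 1050 log2 differences under an alternative, 8 lost and 13 gained a call. Among those called in neither fit, 48 moved by more than the spread between replicates. The other 981 were called in both fits, whatever their shift, or called in neither and moved less. No called value changed sign, and 59 values called in neither fit changed sign or stood at 0 after rounding in either fit. At 6 h against untreated cells the 1 call among 8 probes became 0 with ordinary pooled variance, 2 with the replicate block and 2 with the array background block. Between 6 h and 1 h it became 0 with ordinary variance and 2 with the value table, the replicate block and the array background block. Between 24 h and 6 h it became 2 with the value table and 3 with the replicate block and the array background block. Leaving out 1 array gave 0 to 2, 0 to 1 and 1 to 2 calls in these 3 comparisons. Over all probes the counts in these 3 comparisons, 267, 654 and 1165, became 0, 0 and 107 with ordinary variance, 1066, 1690 and 2163 with the array background block, 468, 601 and 1190 with the value table, and 0 to 509, 0 to 1062 and 308 to 1065 without 1 array. The stricter detection filter gave 407 at 6 h and the floor 337 between 6 h and 1 h. Without HGF 24 h replicate 1 the count at 1 h was 36. The calls gained were of TNFRSF14 and TNFRSF11B. In the other 4 comparisons every alternative gave 0 calls of members. The causes were not tested. The TNFRSF12A difference ranged from 1.31 to 1.75 at 6 h and from -2.26 to -1.75 between 24 h and 6 h. Replicate numbers were not taken as pairs, since deviations of same-numbered arrays correlated from -0.06 to 0.66 and not every pair was over 0.1. Untreated, 6 h and 24 h arrays correlated at 0.59 to 0.66, and the pairs under 0.1 were 1 h with ITGB4 (-0.06) and 1 h with 24 h (0.06). The replicate block moved calls over all probes from 0 to 427 at 1 h, 267 to 1089 at 6 h, 654 to 1871 (6 h minus 1 h) and 1165 to 2245 (24 h minus 6 h) and 0 to 4 (24 h minus 1 h). Genes near the detection limit of 89.6 (FAS, TNFRSF11B) give bounds more than levels.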
